A study of Mus musculus with 16 samples.

Results

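Proprotein convertases are proteases that cut precursor proteins after basic residues on their way through the secretory pathway, and so release active hormones, growth factors, receptors and enzymes. Furin works in the trans-Golgi network and at the surface of nearly all cells. PCSK7 is a membrane protein of the same compartments, PCSK5 exists in a secreted and a membrane-bound form, and PCSK6, also called PACE4, is secreted and binds to heparan sulfate at the cell surface. In the liver these enzymes are known for maturing growth factors of the TGF-beta family and for cutting the precursor of hepcidin and endothelial lipase. The data described here are the levels of the transcripts of Pcsk6, Pcsk5, Pcsk7 and Furin, 4 of the 20826 gene symbols in the table, in mouse liver.

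Pcsk6 was chosen because its level was higher in mice on a high-fat diet and lower when that diet held an extract of krill, so its values in the comparisons below are a description with no test. Furin, Pcsk5 and Pcsk7 were listed as relatives of Pcsk6 and were tested. All 16 animals were male C57BL/6J mice, 4 weeks old at the start, that were fed for 18 weeks. Group N received a normal diet with 10% fat, and group HF a high-fat diet with 45% fat. Groups NW and HFW received the normal and the high-fat diet to which 1% WEPAK, the krill extract, had been added; it is water-soluble and made from Pacific krill. Each group had 4 mice, each with its own liver library, and no genetic change or other agent was given in the labels. The assay was SuperSAGE, in which a short tag next to the last NlaIII site of a polyadenylated transcript is sequenced and counted.

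In this assay a gene is read through a single short stretch, so the tags show which part of each transcript the counts stand for. The lines below give tags of Pcsk6, Pcsk5 and Pcsk7, 26 bases from the last NlaIII site of each transcript in the GENCODE M21 annotation of GRCm38, 5′ to 3′, with the NlaIII site in capitals.
Pcsk6: CATGgtcctgctctcctctctgactg
Pcsk5, longer transcript: CATGctgttgctgctgctgggggctg
Pcsk5, shorter transcript: CATGtgtaaaatgttcagttgttttt
Pcsk7: CATGcctaccctgaaagcagctgcct
The Pcsk6 tag lies at chr7:66050181-66050206 on the plus strand, in exon 22 of 22 and in the 3′ UTR, 206 bases before the transcript's end. The Pcsk7 tag is at chr9:45929241-45929266 on the plus strand, in the 3′ UTR of exon 17 of 17. The Pcsk5 transcripts end in different exons. The tag of the longer one is at chr19:17433674-17433699 on the minus strand, inside the coding sequence of exon 38 of 38, and that of the shorter one at chr19:17558264-17558289, in the 3′ UTR of exon 21 of 21. None of these tags was the last tag of another annotated gene, also when 1 mismatch was allowed. An exact match elsewhere in another gene's transcripts was not found for any of them. Neither the authors' genome build nor their tag matching is given in the sources used here, so their tags may differ in length or position from these.

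The libraries held 56655 to 149349 tags in named genes, so that 1 tag stood for 6.70 to 17.7 CPM (counts scaled to a library of 1000000). HF libraries were the deepest on average, with 118882 ± 23746 tags (SD, n = 4), against group means of 74198 to 75963 in the other groups. NW mouse 12, with 120143 tags, was deeper than HF mice 23, 28 and 29. The hepatocyte markers, 9 of 10 of them in the table and all 9 with tags, summed to at least 57558 CPM in every library, while the adipose markers Adipoq, Plin1 and Fabp4 were at 0. The number of genes past an adjusted p of 0.05 depended on single mice (edgeR quasi-likelihood test, Benjamini-Hochberg adjustment over 1046 genes). Without N mouse 4 the number in HF against N went from 1 to 31, and that in NW against N from 115 to 31. Without N mouse 8 they were 0 and 178. Pcsk6 was among the genes counted. Results that rest on N mouse 4 are given with and without it.

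Pcsk6 was detected in 16 of 16 libraries with 288 tags, of which 219 came from the HF group. Its tags in the HF mice numbered 68 in mouse 23, 98 in mouse 25, 26 in mouse 28 and 27 in mouse 29, or 716, 613, 213 and 229 CPM. The N mice gave 15, 7, 3 and 3 tags in mice 4, 5, 7 and 8, or 223, 66.7, 39.7 and 49.8 CPM. The HF group thus fell into a higher pair, mice 23 and 25, and a lower pair, mice 28 and 29, with intervals of 556 to 908 and 498 to 747 CPM in the first pair and of 139 to 312 and 151 to 333 CPM in the second (exact Poisson, 95%, counting error only). N mouse 4, with an interval of 125 to 368 CPM, lay among the lower HF mice and above HF mouse 28, so the HF and N groups overlapped.

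With the extract, Pcsk6 was low on either diet. The NW mice gave 4, 5, 4 and 2 tags in mice 11, 12, 15 and 20, or 68.2, 42.5, 74.9 and 34.8 CPM. The HFW mice gave 6, 4, 8 and 8 tags in mice 34, 36, 38 and 40, or 69.6, 69.9, 149 and 75.2 CPM. All 4 HF mice lay above all 4 HFW mice and all 4 NW mice. Of the 1046 genes tested, 8.89% had HFW mice that all lay below the HF mice and 17.1% had HF mice that all lay above the NW mice; since the first of these contrasts chose Pcsk6, nothing is read from its place among them. From 2 to 8 tags the counting error was large, and the NW and HFW mice could not be ordered by their levels.

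**Figure D1:**
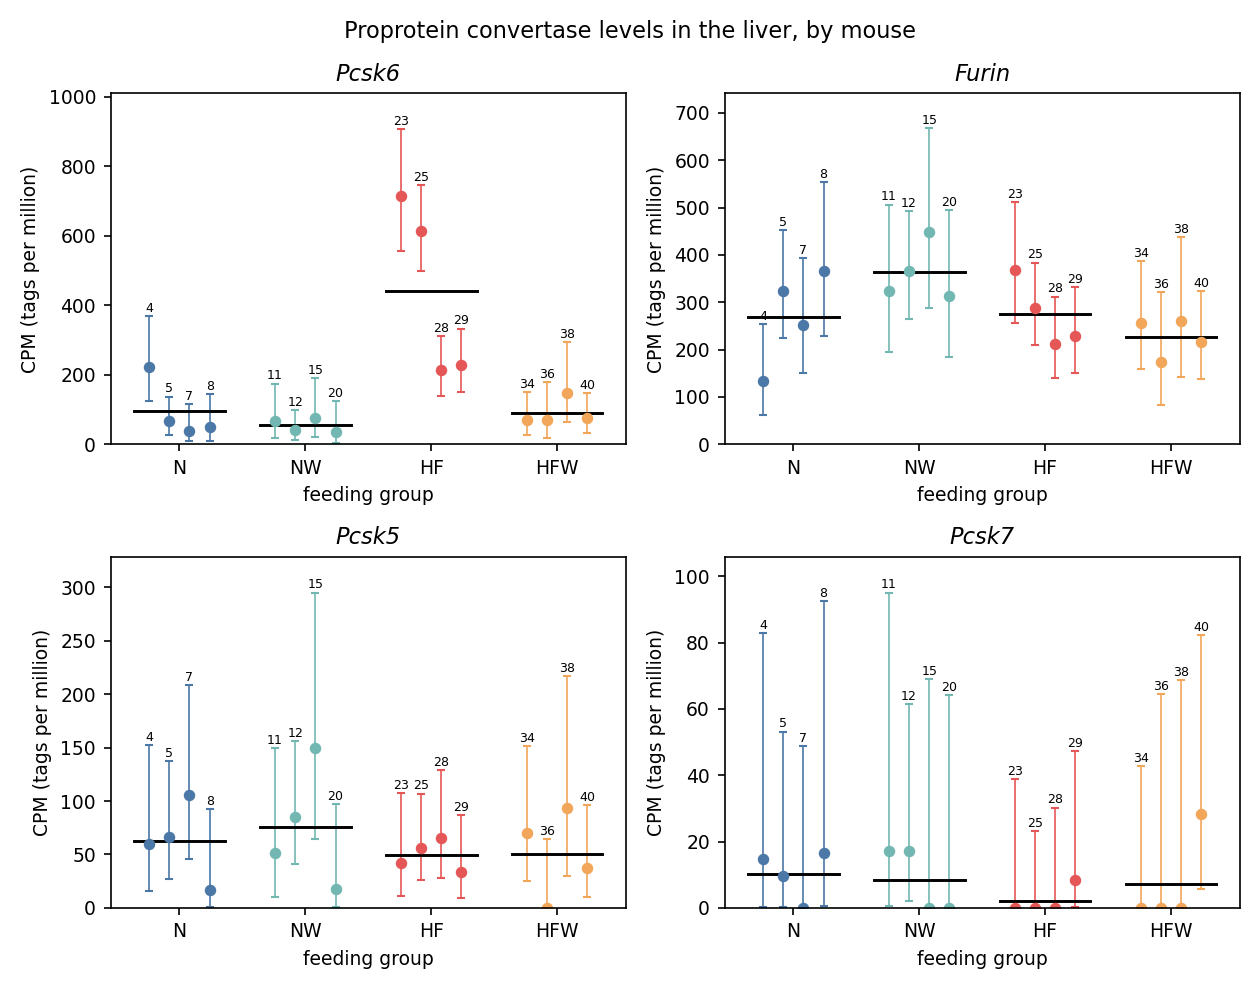
Level of each convertase by mouse, in CPM (y axis) for the groups N, NW, HF and HFW (x axis); points are mice with their numbers, vertical bars are 95% Poisson intervals of the tag count, and black lines are group means. Pcsk6 runs from 213 to 716 CPM in the HF mice and from 34.8 to 149 CPM in the others except N mouse 4 at 223 CPM, while Furin, Pcsk5 and Pcsk7 have overlapping ranges in HF and N.

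The mean level of Pcsk6 was 443 ± 260 CPM in HF, 94.9 ± 86.2 in N, 90.9 ± 38.8 in HFW and 55.1 ± 19.5 in NW (SD, n = 4 each). In order, HF stood highest, and the means of N, HFW and NW differed by less than the SD of the N group. Fitted over all libraries, the HF level was 4.72 times that of N, a log2 fold change of 2.24 with a standard error of 0.45. Adding the extract to the high-fat diet gave a log2 fold change of -2.32 (SE 0.46), a level 4.99 times lower. On the normal diet the extract gave -0.79 (SE 0.61), and HFW stood 0.71 (SE 0.62) above NW on the log2 scale. The difference between the extract's effects on the 2 diets was -1.53 (SE 0.80). Each SE was computed from the fold change and the F statistic of the fit. Since Pcsk6 was chosen on these libraries, its SEs give no test and no bound.

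These values depended on N mouse 4. Without it the N mean was 52.1 CPM, the log2 fold change of HF against N 3.02, that of NW against N -0.022, and the difference between diets -2.32. Leaving out any other single mouse kept HF against N between 1.96 and 2.52 on the log2 scale. HFW against HF ran from -2.61 without HFW mouse 38 to -2.04 without HF mouse 23. Library depth moved with the HF group. With every library thinned to 56655 tags, the Pcsk6 means were 476 CPM in HF, 80.4 in HFW, 85.5 in N and 70.2 in NW, the log2 fold change of HF against N was 2.44 and that of HFW against HF -2.53. Within the HF group, mouse 23 had the shallowest library, with 91468 tags, and 716 CPM of Pcsk6. Mouse 25 had the deepest, with 149349 tags, and 613 CPM. The thinned libraries are the same ones that chose Pcsk6, and the part of depth in its levels was not tested.

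Mice of a group differed in Pcsk6 by more than in most genes. Its within-group SD of log2 CPM was 0.68, against a median of 0.46 over the 1046 genes and of 0.50 for the 100 genes nearest to it in mean level, and 90.3% of genes had a smaller SD. By group the SD was 0.89 in N, 0.87 in HF, 0.37 in NW and 0.43 in HFW. Without N mouse 4 the SD of N was 0.26, the within-group SD of Pcsk6 0.55 against a median of 0.44, and the share of genes with a smaller SD 77.2%. Pcsk6 passed the filter on low counts through its HF mice alone, since elsewhere a single library held more than 8 tags.

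Furin was the most abundant of the family, with 391 tags in 16 of 16 libraries, and ranked 435 of 10171 genes by mean level, against 656 for Pcsk6. Its level was 134, 324, 251 and 365 CPM in N mice 4, 5, 7 and 8, and 368, 288, 213 and 229 CPM in HF mice 23, 25, 28 and 29. In NW mice 11, 12, 15 and 20 it was 324, 365, 449 and 313 CPM, and in HFW mice 34, 36, 38 and 40 it was 255, 175, 261 and 216 CPM. HF and N overlapped over most of their range, and N mouse 4, the highest N mouse for Pcsk6, was the lowest of all 16 mice for Furin with 9 tags. The NW mice all lay above the HFW mice, a separation in this direction that 3.06% of genes showed.

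The mean level of Furin was 363 ± 61.9 CPM in NW, 275 ± 70.4 in HF, 269 ± 102 in N and 227 ± 40.0 in HFW (SD, n = 4 each). In order, NW stood first, then HF, N and HFW, and the neighbours HF and N differed by far less than their SDs. No comparison passed the threshold for Furin. The log2 fold change of HF against N was 0.017 (95% interval -0.59 to 0.63, adjusted p = 0.981, edgeR), a test in which 0.0956% of genes, 1 of 1046, passed. Pcsk6, chosen on this comparison, was among the genes counted, so this share is not free of that choice. For Furin, HFW against HF gave -0.26 (-0.89 to 0.36, adjusted p = 0.614, edgeR), where 9.85% of genes passed. NW against N gave 0.42 (-0.20 to 1.05, adjusted p = 0.385, edgeR), where 11% of genes passed. The widest difference was HFW against NW at -0.67 (-1.31 to -0.03), which had an unadjusted p of 0.0399 and an adjusted p of 0.390 in the edgeR test. In that comparison 0 of 1046 genes passed, with 126 at an unadjusted p under 0.05. The difference between the extract's effects on the diets was -0.69 (-1.57 to 0.19, adjusted p = 0.998, edgeR), again with 0 genes past the threshold and 26 at an unadjusted p under 0.05. Without N mouse 4 the Furin change in HF against N was -0.19, and without HF mouse 23 it was -0.12. Furin varied less within groups than most genes, with an SD of 0.37 on the log2 scale (0.27 without N mouse 4).

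**Figure D2:**
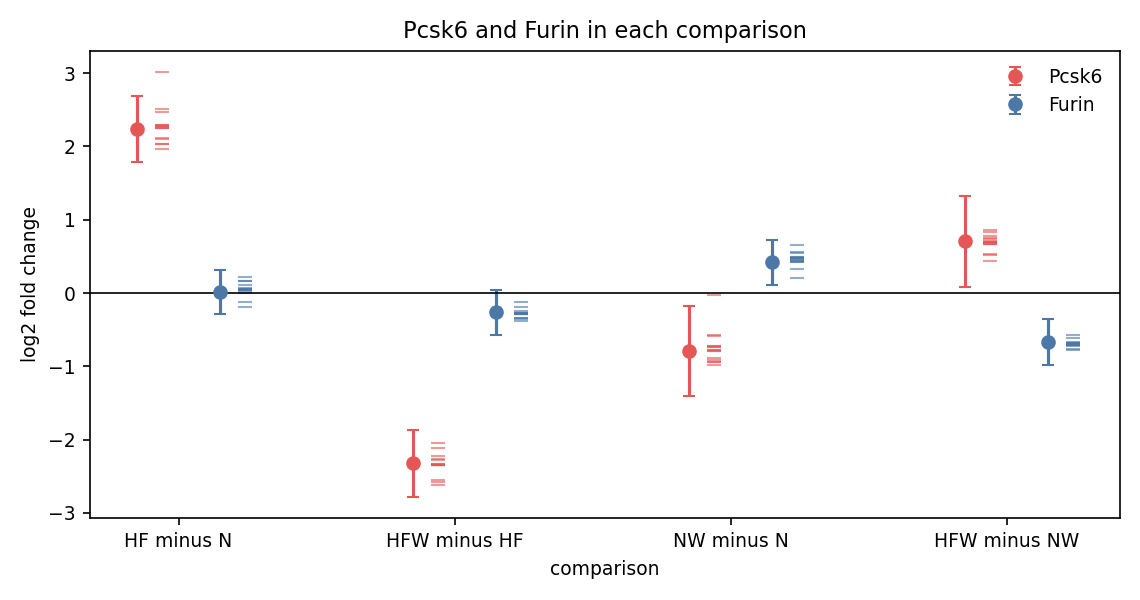
Log2 fold change (y axis) of Pcsk6 and Furin in the 4 comparisons (x axis); points with bars are the fitted value ± standard error over all 16 libraries, and the short dashes beside them are the 16 fits that leave out 1 mouse each. Pcsk6 stands at 2.24 and -2.32 in the comparisons that chose it, so its bars give no test. Without N mouse 4 it has a dash at 3.02 for HF minus N and a dash at -0.022 for NW minus N. The fitted values of Furin lie between -0.67 and 0.42 and its dashes between -0.77 and 0.65.

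Pcsk5 was read with 82 tags in 15 of 16 libraries and did not pass the filter. The N mice 4, 5, 7 and 8 gave 4, 7, 8 and 1 tags, and the NW mice 11, 12, 15 and 20 gave 3, 10, 8 and 1. The HF mice 23, 25, 28 and 29 gave 4, 9, 8 and 4 tags, and the HFW mice 34, 36, 38 and 40 gave 6, 0, 5 and 4. All groups overlapped, with means of 75.8 ± 56.5 CPM in NW, 62.2 ± 36.6 in N, 50.1 ± 40.4 in HFW and 49.5 ± 14.2 in HF (SD, n = 4 each). With no filter, the log2 fold change of Pcsk5 in HF against N was -0.16 (95% interval -1.24 to 0.91, adjusted p = 1, edgeR over 10171 genes), and that in HFW against HF was -0.22 (-1.36 to 0.91, adjusted p = 1, edgeR). In these fits 0.00983% and 1.04% of genes passed, with Pcsk6 again among the genes counted. Differences up to the edges of these intervals were not excluded. The fit with no filter took its spread from all genes together, with 122052 degrees of freedom, so these intervals do not measure the spread of Pcsk5 alone.

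The Pcsk5 tags fell on both transcripts. The longer transcript, which encodes 1877 residues and the membrane-bound form, held 68 of 82 tags, a share of 82.9% (exact 95% interval 73.0 to 90.3%). The shorter one, which encodes the secreted form of 915 residues, held 14. By group the longer transcript held 18 of 20 tags in the N mice, 17 of 22 in the NW mice, 22 of 25 in the HF mice and 11 of 15 in the HFW mice. The exact intervals of these shares overlapped widely, from 68.3 to 98.8% in N to 44.9 to 92.2% in HFW. All these intervals pool the tags of the mice, so they cover counting error and not the spread between mice. The 2 tags, whose sequences are shown above, differ in composition, with a GC content of 65.4% for the longer transcript's tag and 26.9% for that of the shorter one.

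Pcsk7, the convertase known for releasing the transferrin receptor from cells, was close to the limit of detection. It had 10 tags in 7 libraries, with 3 tags each in the N, NW and HFW groups and 1 in HF. The HFW tags all came from mouse 40 and the HF tag from mouse 29. A floor of 3 tags over all HF libraries corresponds to 6.06 CPM. With no filter the HF against N difference was -1.56 on the log2 scale (95% interval -4.09 to 0.97, adjusted p = 0.757, edgeR), so that the data set no useful bound on it.

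Among the other convertases, Mbtps1, the site-1 protease that activates SREBP transcription factors, had 31 tags in 14 libraries, 10 of them from N mice, 10 from NW mice, 7 from HF mice and 4 from HFW mice. Pcsk4, known from germ cells, had 16 tags in 10 libraries. Pcsk1 and Pcsk2, the enzymes of neuroendocrine granules, had 0 tags, which allows up to 6.06 CPM in the pooled HF libraries and up to 10.4 CPM in the pooled NW libraries. For Mbtps1 and Pcsk4 no comparison passed the threshold in the fit without a filter, where 0.688% of genes passed in NW against N and 0 of 10171 genes in HFW against NW.

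**Figure D3:**
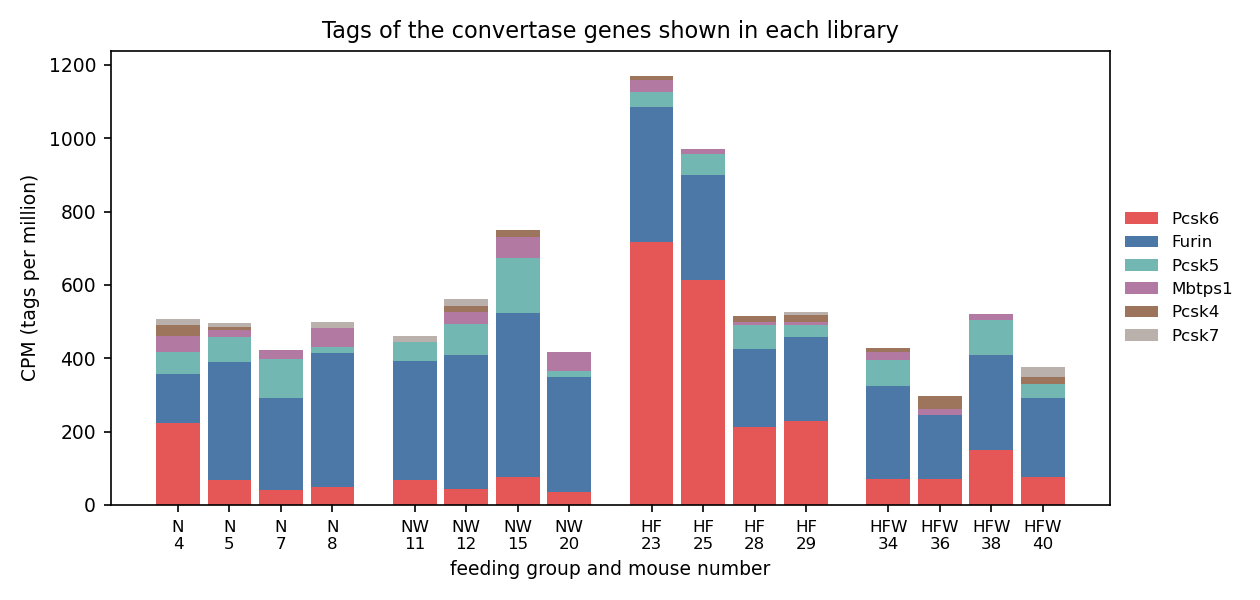
Summed level of 6 convertase genes with tags (y axis, CPM) in each library (x axis, group and mouse number), split by gene. The Pcsk6 part fills 61.3% and 63.2% of these tags in HF mice 23 and 25 and 7.58% in NW mouse 12, while the remainder of the bars varies less.

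The share of Pcsk6 among the tags of Pcsk6, Furin, Pcsk5, Mbtps1, Pcsk4 and Pcsk7 needs no library scaling. It rests on the same tags that chose Pcsk6 and is given as a description. It was 61.3, 63.2, 41.3 and 43.5% in HF mice 23, 25, 28 and 29, and 16.2, 23.5, 28.6 and 20.0% in the HFW mice 34, 36, 38 and 40. N mouse 4 stood at 44.1%, and the other N mice at 13.5, 9.38 and 10.0%. The NW mice ran from 7.58 to 14.8%, all below the HFW mice. The nearest mice of NW and HFW, NW mouse 11 and HFW mouse 34, had 4 of 27 and 6 of 37 tags. With so few tags no order of NW and HFW is read from this share, and in CPM their Pcsk6 levels overlapped. The share also depends on the other genes, and mean Furin was 363 CPM in NW and 227 CPM in HFW. Means were 52.3 ± 11.5% in HF, 22.1 ± 5.26% in HFW, 19.2 ± 16.7% in N and 10.2 ± 3.25% in NW (SD, n = 4 each). Set against Furin, Pcsk6 had 1.94 and 2.13 tags per Furin tag in HF mice 23 and 25, equal tag counts in HF mice 28 and 29 (26 and 26, and 27 and 27), 1.67 in N mouse 4 and 0.111 to 0.571 in the other 11 mice. Pcsk6 was thus at or above Furin in 5 of 16 livers. These ratios compare tag counts, which need no length correction because a transcript gives a single tag, but tags of different genes may be recovered unequally. The other 5 genes together made 492 ± 136 CPM in NW, 386 ± 74.1 in N, 352 ± 72.2 in HF and 315 ± 66.4 in HFW (SD, n = 4 each), with overlap between HF and every other group.

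The nearest protein-coding genes on either side of each member were mostly read with few tags. Genes that overlap a member were left out, so these need not be the adjacent ones. For Pcsk6, Tm2d3, 160223 bases away, had 23 tags (N 4, NW 4, HF 9, HFW 6), and Snrpa1, 9950 bases away, had 0. Fes, which lies 1240 bases from Furin and encodes a tyrosine kinase, had 61 tags (N 17, NW 11, HF 22, HFW 11). Sidt2, 5750 bases from Pcsk7, was the best covered with 677 tags (N 158, NW 133, HF 265, HFW 121). Bace1, 43963 bases away on the other side of Pcsk7, had 16. Rfk and Ostf1, 30965 and 742652 bases from Pcsk5, had 5 tags each. These group sums are raw tags, not scaled for depth. HF libraries held 118882 tags on average, against 74198 to 75963 in the other groups. Higher HF sums are therefore not read as higher levels.

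The wider pathway was described by 137 genes: inhibitors of the convertases, proteins that sort or tether them, their substrates, and the carboxypeptidases that trim the ends they leave. Of these, 19 genes other than Pcsk6 passed the filter, Furin included. In HF against N, HFW against HF, NW against N and HFW against NW, 0 of 19 genes were higher and 0 lower past the threshold. Over all genes, 4.21% passed as higher and 5.64% as lower in HFW against HF, and 3.63% as higher and 7.36% as lower in NW against N. In HF against N 0.0956% passed as higher and 0 as lower, and in HFW against NW 0 passed. Pcsk6 was among the genes counted. The median log2 fold change of the 19 genes was -0.20 in HF against N (all genes tested -0.02). It was 0.14 in HFW against HF (all genes 0.05), 0.0024 in NW against N (all genes -0.03) and 0.06 in HFW against NW (all genes 0.05). None of the 7 inhibitors and helpers, the 10 sorting proteins or the 20 precursors of the TGF-beta family passed the filter. Tags of 9 sorting proteins, 10 TGF-beta family members and 1 inhibitor or helper were seen.

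Of the 13 genes for proteoglycans and metalloproteinase inhibitors that hold convertases at the cell surface, 4 were tested. Sdc4, a syndecan, was the most abundant, with 18667 to 39934 CPM across the libraries. Gpc4, a heparan sulfate proteoglycan linked to the membrane by a lipid anchor, was 327, 305, 265 and 698 CPM in N mice 4, 5, 7 and 8 and 904, 552, 880 and 730 CPM in NW mice 11, 12, 15 and 20. These groups overlapped through N mouse 8, and the log2 fold change of 0.95 (SE 0.35) had an adjusted p of 0.0709 in edgeR. Without N mouse 8 it was 1.41 with an adjusted p of 0.00766 in edgeR, and in the thinned libraries it was 1.08 with an adjusted p of 0.0404. In the other alternatives it did not pass, with adjusted p in edgeR or DESeq2 of up to 0.211, the value without N mouse 4. Gpc1, a related proteoglycan, had a log2 fold change of 0.87 (SE 0.42) in HF against N, with an adjusted p of 0.493 in edgeR.

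Among the substrates, 6 of 29 growth factors, hormones and receptors were tested, 6 of 17 plasma and complement precursors, and 1 of 19 metalloproteinases and integrins. Itih3, a heavy chain of the inter-alpha-inhibitor family that binds hyaluronan, ran at 274, 225, 221 and 280 CPM in HF mice 23, 25, 28 and 29 and at 592, 454, 391 and 413 CPM in HFW mice 34, 36, 38 and 40. The HFW mice all lay above the HF mice, a separation that 6.79% of genes showed in this direction. Its log2 fold change of 0.90 (SE 0.30) had an adjusted p of 0.0528 in edgeR, which passed 0.05 without N mouse 4, without N mouse 8 and when only the compared groups were fitted, and ran from 0.0298 to 0.60 over the alternatives. In NW against N the log2 fold change of Itih3 was 0.81 (adjusted p = 0.0698, edgeR), which passed without N mouse 7, N mouse 8 or NW mouse 20 and ran from 0.0236 to 0.471 over the alternatives.

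Itgav, the integrin alpha-V chain that furin-like enzymes cut into a heavy and a light chain, was 579, 532, 729 and 644 CPM in the HF mice and 812, 1031, 1136 and 949 CPM in the HFW mice, in order of mouse number. The HFW mice all lay above the HF mice, as for 6.79% of genes, and the log2 fold change was 0.66 (SE 0.26, adjusted p = 0.101, edgeR). In NW against N it was 0.67 (adjusted p = 0.0929, edgeR), which passed without N mouse 5 and ran from 0.0403 to 0.625 over the alternatives. Notch2, a receptor cut by furin before it reaches the cell surface, had 10.5 CPM in HF mouse 23 and 102 to 147 CPM in the other HF mice, against 140 to 225 CPM in HFW. Its log2 fold change in HFW against HF was 0.91 (SE 0.40, adjusted p = 0.129, edgeR). It was 0.58 without HF mouse 23, and 0.32 with an adjusted p of 0.702 in edgeR in the thinned libraries. Hamp, the precursor of the iron hormone hepcidin that furin matures, varied widely, from 106 to 1748 CPM within HF and from 93.2 to 1127 CPM within HFW. Its log2 fold change in NW against N was -1.70 (SE 0.94, adjusted p = 0.262, edgeR). It was -0.88 without N mouse 5, which had 2088 CPM against 397 to 814 CPM in the other N mice.

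The genes whose log2 CPM ran most like Pcsk6 over the 16 libraries, by Pearson's r among the 1045 other genes that passed the filter, were C80913 (r = 0.86), Sec24c (0.85), Ltbr (0.84), 1110020G09Rik (0.84) and Cdc34 (0.83). Sec24c encodes a part of the COPII coat of transport vesicles, Ltbr the lymphotoxin beta receptor and Cdc34 a ubiquitin-conjugating enzyme. Those running most against it were Mug2 (-0.90), Gc (-0.89), Pacsin3 (-0.88), Dctn2 (-0.88) and Slc39a1 (-0.87). Gc encodes the vitamin D-binding protein, Mug2 a protease inhibitor of plasma, and Slc39a1 a zinc transporter. Over all genes the 5th and 95th percentiles of r were -0.70 and 0.72. Both genes of a pair are read from the same 16 libraries, with the same depths and feeding groups. For Furin, r with Pcsk6 was -0.15.

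Within groups, on deviations from the group means, genes near the top of the ranking were C80913 (r = 0.84), Igfals (0.83), Kdelr1 (0.78) and Sun2 (0.74). Igfals encodes the acid-labile subunit that carries insulin-like growth factors in plasma, Kdelr1 a receptor for the retrieval of resident proteins of the endoplasmic reticulum and Sun2 a protein of the nuclear envelope. Kdelr1 was 3558, 2703, 1662 and 1856 CPM in HF mice 23, 25, 28 and 29, 376 to 824 CPM in HFW and 330 to 461 CPM in NW. In N it was 3243 CPM in mouse 4 and 747 to 1192 CPM in the others, so that mice 23, 25 and N mouse 4 stood highest. Gc was 3000, 2528, 5175 and 6358 CPM in the HF mice, 3451 CPM in N mouse 4 and 7647 to 13455 CPM in the other N mice. When each mouse was left out in turn, all 14 named places stayed among the first 50 of their ranking.

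**Figure D4:**
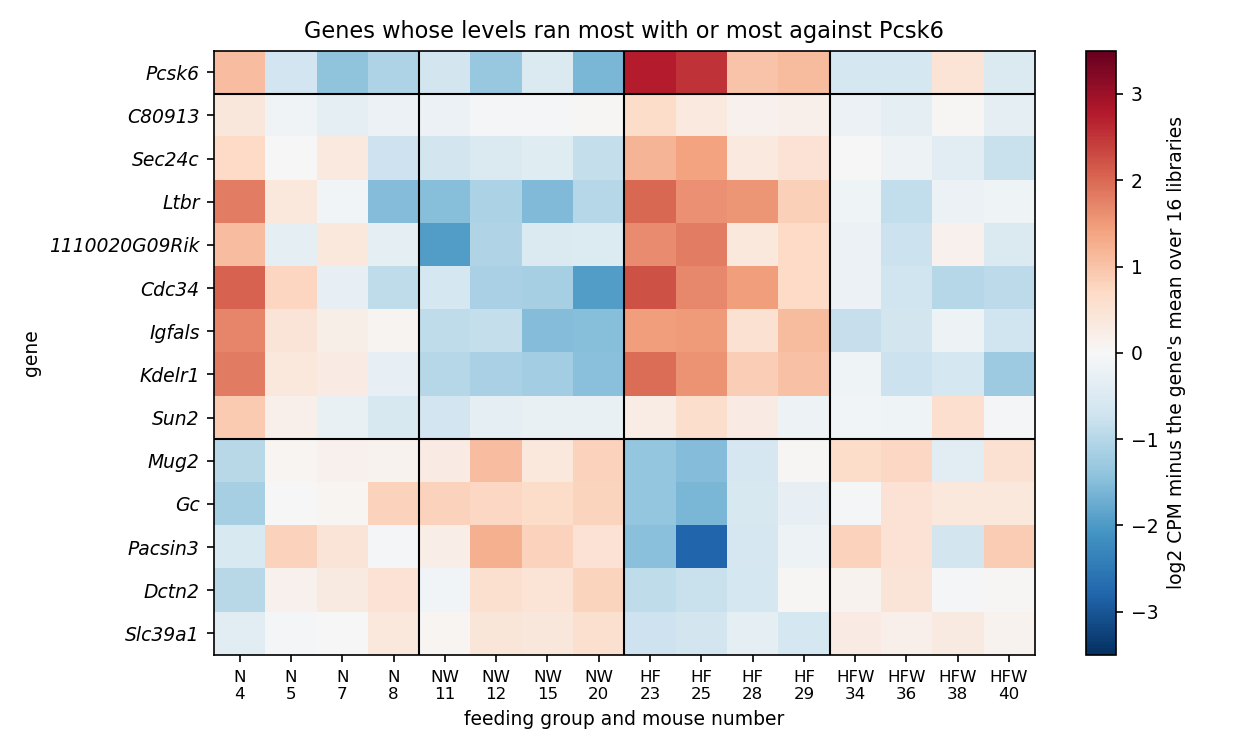
Log2 CPM minus the gene's mean over the 16 libraries (colour, red above and blue below) for Pcsk6, the 5 genes most like it over these libraries, 3 more from the ranking within groups, and the 5 most unlike it (y axis), by group and mouse (x axis). The genes were chosen on these same libraries, and HF mice 23 and 25 and N mouse 4 are red in the rows of like genes and blue in those of unlike genes.

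In whole liver, a change in the number of cells of a type and a change in the RNA per cell cannot be told apart. Beside the Pcsk6 levels, 10 of 11 Kupffer cell markers were in the table, and they summed to 568 to 1095 CPM in HF, 507 to 1276 in HFW, 744 to 980 in N and 563 to 943 in NW. The 9 sinusoidal endothelial markers summed to 874 to 1108 CPM in HF, 733 to 859 in HFW, 498 to 997 in N and 563 to 799 in NW, with the highest mean in HF, 956 CPM, as for Pcsk6. Stellate cell markers, 8 of 10 with tags and Rgs5 and Acta2 at 0, summed to 547 to 3988 CPM in HF, 856 to 4096 in HFW, 548 to 1071 in N and 409 to 1067 in NW. Their means were 1633 CPM in HF and 2130 in HFW, against 788 in N and 758 in NW, but the groups overlapped. HF mice 23 and 29, at 547 and 746 CPM, and HFW mouse 36, at 856 CPM, lay below the highest N mouse, at 1071 CPM. The other HF and HFW mice lay above it. The highest sums were those of HFW mouse 34 and HF mouse 28, mice with 69.6 and 213 CPM of Pcsk6. The hepatocyte markers summed to 58745 to 71640 CPM in HF, 97881 to 114447 in NW, 64842 to 99432 in N and 57558 to 90340 in HFW. Of 6 cholangiocyte markers 3 had tags (HFW 9, N 5, NW 4, HF 1), with sums of up to 93.2 CPM in a library, while Krt7, Krt19 and Cftr were at 0. Of 5 lymphocyte markers 2 had tags, 3 in NW and 1 in HF, with Ptprc, Cd79a and Cd8a at 0. The part of these cell types in the Pcsk6 differences was not tested.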

How the data were processed

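Total liver RNA of 16 mice was made into SuperSAGE libraries with NlaIII and EcoP15I, per the labels' protocols. The deposited values are unnormalised counts of tags, 1 row per RefSeq transcript and 1 column per mouse, per the file headers. The sources used here give no tag matching method, RefSeq release or genome build. No molecular identifiers are named, so intervals and floors cover counting error only.

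Counts were summed per gene symbol, leaving out 417 rows without one (0.0729% of tags). The tests used edgeR 4.0.16 under R 4.3.3 (TMM scaling, default filter by group with a minimum count of 10, robust quasi-likelihood F test over all 16 libraries, Benjamini-Hochberg adjustment at 0.05), which kept 1046 of 10171 symbols with tags. The fit was tested on simulated counts. CPM use the scaled library size, and log2 CPM a prior count of 2. Libraries of a group were checked for duplicates (chi-square per degree of freedom 2.70 to 12.3). Members below the filter come from the fit without it. Floors are 3 tags. Alternatives included DESeq2 1.42.0.

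The members, gene lists and tests were chosen with earlier results of these data known. Genes named are the members, list genes with the smallest p per list, the 5 most like and 5 most unlike Pcsk6, the 5 most like it within groups, and chromosomal neighbours from RefSeq annotation. A few genes of these lists and rankings, and the tag of Furin, are not reported here.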

Additional observations from a re-analysis of the deposited data

Results flagged for a closer look

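Among 16 sets of 4 mice examined (4 genes in 4 groups), 4 held a mouse whose gap to its nearest neighbour, as a share of the range, was above Dixon's 95% critical value. Chance gives about 1 in 20 such sets, but the count is not read against it, since Pcsk6 was chosen on these values and a set with tags in 1 mouse alone, as for Pcsk7, passes by construction. For Pcsk6 these were N mouse 4, at 223 CPM against 39.7 to 66.7 in the other N mice, and HFW mouse 38, at 149 CPM against 69.6 to 75.2 in the other HFW mice. HFW mouse 38 had 8 tags in the smallest library, of 56655 tags, and HFW mouse 40 also had 8 tags, in 101481. For Pcsk7 these were HF mouse 29, at 8.48 CPM, which is 1 tag, and HFW mouse 40, at 28.2 CPM, which is 3 tags, with 0 tags in the other mice of each group.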

How the results depend on the processing

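No paired analysis was possible because the mouse numbers differ in every group. Thinning to the smallest library was added after seeing the data. The counts below run over all genes tested, including Pcsk6, which was chosen on HF against N and HFW against HF. The number of genes past the threshold in HF against N (1) was 2 with DESeq2's Wald test and 0 with only the compared groups, and 0 to 31 when a mouse was left out (31 without N mouse 4). In HFW against HF (103) it was 40 (without HF mouse 25) to 150 (without HF mouse 28). In NW against N (115) it was 70 with no filter, and 31 (without N mouse 4) to 178 (without N mouse 8). In HFW against NW (0) it was 3 with only the compared groups, 1 after thinning and 0 to 3 without single mice (3 without NW mouse 20).

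Leaving out single mice moved the log2 fold change of Pcsk6 from 1.96 to 3.02 in HF against N, from -0.98 to -0.022 in NW against N, and from -2.32 to -1.27 for the difference between diets, which was -2.25 after thinning. Furin in HF against N ran from -0.19 to 0.22. The sign of small list changes also turned. Cpn1 ran from -0.068 to 0.72 in HF against N and from -0.42 to 0.38 in NW against N, and Itgav from -0.32 to 0.10 in HF against N (0.035 with no filter, 0.011 after thinning). The cause was not tested. Depth limits Pcsk5, Pcsk7 and the Pcsk6 levels outside the HF group, where nearly all libraries held 10 tags or fewer.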
